A study of Mus musculus with 4 samples.

Results

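The primary cilium is a single microtubule-based antenna that protrudes from most cells, including the apical radial glia that line the ventricles of the embryonic brain. Intraflagellar transport (IFT) trains carry its building blocks, with IFT-B particles moving outward on kinesin-2 and IFT-A particles linked to the return on dynein-2. The BBSome, an octameric coat first known from Bardet-Biedl syndrome, moves membrane proteins out of the cilium, and the transition zone, built from MKS and NPHP proteins, gates its base. Vertebrate Hedgehog signalling depends on all of these parts, and faults in them cause brain malformations such as Joubert syndrome.

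The genes described here are 43 protein-coding genes of 20421 genes in the deposited table. They were chosen by name, 29 by the prefixes Ift, Bbs, Tctn, B9d and Nphp before a digit and 14 from a list of single genes. The rule reads names and biotypes and no measured value. A further 3 names that match the rule carry another biotype in the table and were not counted. They are Tctn2, listed there as a processed transcript, and the antisense RNAs B9d1os and Ift88os. The 43 genes lie on 16 chromosomes, none of them on X or Y.

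Brain RNA was taken at embryonic day 15 from C57BL/6 mice. The groups were wild type (WT) and animals of genotype FOXM1f/+;Nestin-Cre. The Nestin promoter drives Cre in neural progenitors and so in the cells derived from them; vessels, meninges and blood have other origins. GEO lists 4 samples, 2 in each group, and the titles of the WT samples name nestin for one and foxm1 for the other, so the controls may carry either allele. The table has 1 column of reads for each genotype, and it is unknown whether a column holds 1 embryo or several. No difference below has a replicate check, and no test between genotypes was possible. Each ratio is of counts per 1000000 reads (CPM), FOXM1f/+;Nestin-Cre over WT, with an exact 95% interval that covers counting error only.

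The FOXM1f/+;Nestin-Cre library held 17856653 reads and the WT library 17543705. Foxm1 had 1289 reads in the FOXM1f/+;Nestin-Cre library and 1139 in the WT library and a ratio of 1.11 (1.03 to 1.21). The series title speaks of human FOXM1, and how reads of a human copy were counted is unknown. The pan-neuronal tubulin Tubb3 and the migrating-neuron gene Dcx, which mark the labelled tissue, had 51844 and 14806 reads against 51704 and 15884. Xist had 9628 and 5 reads and 4 genes of the Y chromosome (Uty, Ddx3y, Kdm5d, Eif2s3y) had 0 reads against 202 to 1266, so the libraries also differ in sex content, which cannot be told apart from genotype.

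All 43 genes were expressed, with 65 to 1731 reads in a library and a mean of at least 1 CPM, the minimum set for a comparison. Together they took 0.113% of reads in the FOXM1f/+;Nestin-Cre library and 0.114% in the WT library. Their summed level was 1129 against 1136 CPM, a ratio of 0.994 (0.975 to 1.01).

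None of the 43 genes reached 1.5-fold, the size set for calling a gene, in either direction. Over all 14557 genes compared, 2.53% passed that size on the higher side and 5.23% on the lower side. The median log2 ratio of the 43 genes was -0.04, beside -0.01 for all genes compared, and their interquartile range was 0.22 beside 0.29. The counting interval lay wholly inside 1.5-fold either way for 37 of 43 genes (86%, against 70.9% of all genes compared), so for these the reads alone set a limit below that size. The exceptions were Bbs5, Bbs7, Bbs10, Nphp4, Cep290 and Rpgrip1l. The width of an interval depends on reads. The 43 genes had at least 65 reads in each library, while all genes compared went down to 0. Median reads were 371 in both libraries for the 43, against 479 (FOXM1f/+;Nestin-Cre) and 474 (WT) for all. The shares and spreads in this paragraph were not matched for depth.

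Smaller differences were present. The interval lay wholly above 1 for 4 genes (9.30%), Ift27, Rpgrip1l, Ift74 and Ttc21b, and wholly below 1 for 5 genes (11.6%), Bbs5, Nphp4, Bbs7, Dync2h1 and Ahi1. The same held for 16.5% and 19.2% of all genes compared, so these shares do not exceed the background. Of the 43, 17 ratios were above 1 and 26 below, beside 7039 above and 7518 below among all genes compared. In bulk brain RNA, fewer cells of a type and less RNA per cell cannot be told apart in any of these values.

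**Figure D1:**
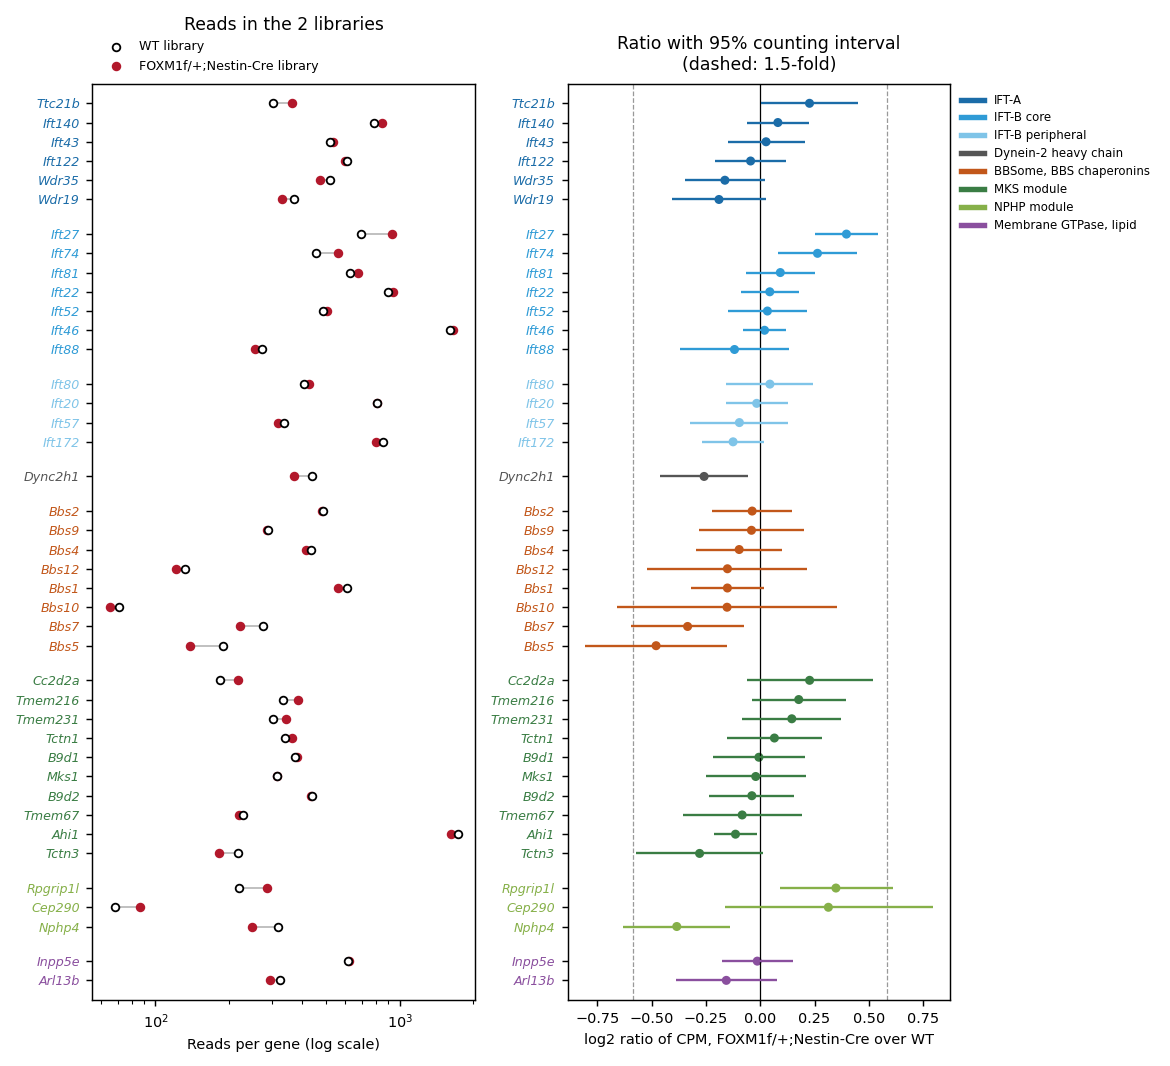
Reads per gene in the WT (open) and FOXM1f/+;Nestin-Cre (filled) libraries on a log axis (left) and the log2 ratio of CPM with its 95% counting interval (right) for 41 of the 43 genes, grouped by complex. All points lie inside the dashed lines at 1.5-fold. The 8 genes taken in by the prefix Bbs all sit left of 0, and Rpgrip1l and Nphp4 of the NPHP module lie on opposite sides of it.

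Ciliary genes are known targets of RFX transcription factors, which bind the X-box, an inverted repeat of the arm GTTGCC and its reverse complement GGCAAC. RefSeq promoters (GRCm38.p6, 250 bases before to 50 after the start) were found for 37 of the 43 genes by symbol. Among the others, Ift80, Ift81, Ift122 and Tmem67 had no entry. A single arm, on either strand, was present in 19 of 37 promoters (51.4%, exact 95% interval 34.4 to 68.1), against 1526 of the 10147 promoters of protein-coding genes compared. The complete pair of arms with 0 to 3 bases between them occurred in 1 of 37 (2.70%) and in 0.256% of all. A relaxed pair, GTNNCC and NGNAAC with 0 to 3 bases between, occurred in 14 of 37 (37.8%) and in 7.08% of all, and these matches overlap those of the single arm. In 8 of the 19 an arm lay before the start, and in the other 11 it lay wholly after the start. The share in the 250 bases before the start alone was 21.6% (9.83 to 38.2), against 12.7% of all, which lies within that interval. Promoters of the 37 genes had a median GC content of 58.3%, against 61.3% for all.

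All 5 genes with intervals below 1 had an arm in the window, and so did Ift27, the gene with the highest ratio. Their windows are shown with the arm in capitals, or the relaxed pair where the arm is part of one, 5′ to 3′ on the gene's strand. Positions are taken from the RefSeq start. The first capital was base 43 after it for Bbs5, 2 for Nphp4, 37 for Dync2h1 and 22 for Ahi1. For Bbs7 and Ift27 the first capital lay 121 and 9 bases before that start. That start lies inside the gene model of the table by 1436 bp for Nphp4, 7388 bp for Dync2h1, 88 bp for Bbs7, 27 bp for Ift27 and 61 bp for Ift57, so the arm of Ift27 and the printed pair of Ift57, though before the RefSeq start, fall within the table's gene.

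Bbs5, chr2:69647191-69647220, + strand: gatgtcgtgacaaagccggcgcGTTGCCtt
Bbs7, chr3:36613474-36613533, - strand: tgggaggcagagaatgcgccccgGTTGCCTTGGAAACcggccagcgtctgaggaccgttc
Nphp4, chr4:152478131-152478160, + strand: tggtgcatcccgGTTGCCagctgatgttgg
Dync2h1, chr9:7177009-7177038, - strand: catagcgacggagcttGGCAACtgctgagt
Ahi1, chr10:20952560-20952589, + strand: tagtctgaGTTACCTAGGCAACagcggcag
Ift27, chr15:78174082-78174141, - strand: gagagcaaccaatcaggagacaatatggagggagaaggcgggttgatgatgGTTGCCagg

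A further 3 windows show the motif in its fuller forms. Tctn1 holds the only complete pair of arms, and Mks1 and Ift57 carry relaxed pairs before the RefSeq start.

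Tctn1, chr5:122264411-122264440, - strand: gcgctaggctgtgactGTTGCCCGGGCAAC
Mks1, chr11:87853155-87853214, + strand: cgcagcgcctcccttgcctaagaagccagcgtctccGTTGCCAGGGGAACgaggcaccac
Ift57, chr16:49699210-49699269, + strand: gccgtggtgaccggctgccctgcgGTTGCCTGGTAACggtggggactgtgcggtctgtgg

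The 19 genes with an arm had a median log2 ratio of -0.12, and 15 of them had ratios below 1, with 5 intervals below 1 and 1 above. The 18 genes without one had a median of 0.02, with 8 ratios below 1, no interval below 1 and 3 above (Rpgrip1l, Ift74 and Ttc21b). Over all protein-coding genes compared, the medians with and without an arm were -0.02 and -0.01. Split by the relaxed pair, 9 of 14 genes with it and 14 of 23 without it had ratios below 1, with medians of -0.07 and -0.02 and 3 and 2 intervals below 1, so the pattern depends on the motif used. The splits were made after the ratios were known and were not tested. A match of letters is a description and not a bound site.

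**Figure D2:**
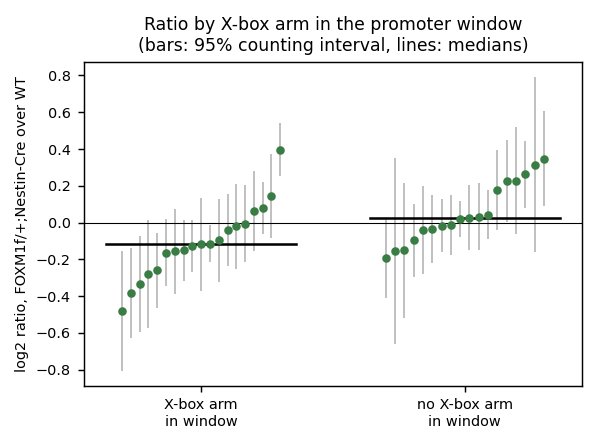
The log2 ratio of CPM for each of the 37 genes with a promoter entry and its 95% counting interval, split by whether GTTGCC or its reverse complement occurs in the promoter window, with medians as lines. The 19 genes with the arm have a median of -0.12 and the 18 without it 0.02, and the groups overlap.

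IFT-A links the trains to the return journey and brings receptors into the cilium. Its summed level was 176.0 CPM in the FOXM1f/+;Nestin-Cre library and 176.8 CPM in the WT library, a ratio of 0.996 (0.947 to 1.05). Ttc21b (IFT139), a scaffold subunit and a modifier of human ciliopathies, had 362 reads against 304, a ratio of 1.17 (1.002 to 1.37), with the interval just clear of 1. The other subunits had intervals that spanned 1. Wdr19 (IFT144) had 331 against 371 reads and Wdr35 (IFT121) 471 against 518, both lower in the FOXM1f/+;Nestin-Cre library. Ift122 had 600 against 608, Ift43 536 against 517, and Ift140 844 against 784. The subunits thus lay on both sides of 1, 3 above and 3 below.

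Among the parts as the name rule takes them in, the core of IFT-B had most ratios above 1, 6 of 7. The summed level of these 7, Ift27 included, was 309.4 against 287.1 CPM, a ratio of 1.08 (1.04 to 1.12). The name rule leaves out other IFT-B genes. Hspb11 had a ratio of 1.17, and Ttc26, Ttc30a1 and Ttc30b had 0.947, 0.956 and 0.916, all with intervals that spanned 1. The median log2 ratio of the 7 was 0.04, and only the intervals of Ift27 and Ift74 lay above 1. Ift27 (ENSMUSG00000016637; chr15:78159465-78174108, - strand, GRCm38), a small Rab-like GTPase that couples IFT to BBSome exit, had 935 reads in the FOXM1f/+;Nestin-Cre library and 698 in the WT library. At 52.4 against 39.8 CPM its ratio was 1.32 (1.19 to 1.45), the highest of the 43. Ift74 (chr4:94614491-94693229, + strand), which forms the tubulin-binding module with Ift81, had 557 against 456 reads, a ratio of 1.20 (1.06 to 1.36). Its partner Ift81 had 677 against 624 reads, a ratio of 1.07 (0.955 to 1.19). Both members of this pair were higher in the same library, Ift81 within counting error.

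The remaining core subunits that the name rule takes in were close to level. Ift46 had 1657 against 1606 reads, Ift22, another Rab-like GTPase, 940 against 896, and Ift52 505 against 485. Ift88, whose loss abolishes cilia in the mouse, had 255 against 272 reads, a ratio of 0.921 (0.773 to 1.10). It was the single one of these 7 core genes below 1. Ift88 and Ift27 were thus the ends of the 7.

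Of the 4 peripheral IFT-B subunits that the name rule takes in, all intervals spanned 1. Ift172, the largest IFT-B protein, had 797 against 854 reads, Ift57 319 against 335, Ift80 424 against 404, and Ift20, which also acts at the Golgi, 810 against 805. Their summed ratio was 0.963 (0.909 to 1.02). Dync2h1 (chr9:6928503-7184446, - strand), the heavy chain of the dynein-2 motor for return transport, had 371 against 436 reads. It was 1.20-fold lower (1.04 to 1.38) in the FOXM1f/+;Nestin-Cre library, 20.8 against 24.8 CPM.

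The 6 BBSome subunits and 2 chaperonin-like assembly factors that the name rule takes in all had lower ratios in the FOXM1f/+;Nestin-Cre library. Their median log2 ratio was -0.15 and their summed level 128.0 against 141.7 CPM, 1.11-fold lower (1.04 to 1.17). Of the 8 intervals, 2 lay wholly below 1, against 19.2% of all genes compared. The sum leaves out Ttc8 and Mkks, with ratios of 1.19 and 1.34 and intervals above 1, and Bbip1, at 0.970. The order by size of the 8 ratios ran from Bbs5 to Bbs2. Bbs5 (chr2:69647171-69667571, + strand), a subunit with phosphoinositide-binding domains, had 138 reads against 189, or 7.73 against 10.8 CPM, and was 1.39-fold lower (1.11 to 1.75), the lowest ratio of the 43. Bbs7 (chr3:36573142-36613477, - strand), a beta-propeller subunit, had 222 reads against 275, 1.26-fold lower (1.05 to 1.51).

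For the other 6, the intervals spanned 1. Bbs1, which holds the most common human Bardet-Biedl mutation, had 560 against 611 reads, a ratio of 0.900 (0.802 to 1.01). Bbs4 had 413 against 434 reads, Bbs9 285 against 288 and Bbs2 482 against 486. The chaperonin-like Bbs10 and Bbs12, which help assemble the complex, had 65 against 71 and 121 against 132 reads. At these depths an interval such as that of Bbs10, 0.632 to 1.28, leaves both directions possible.

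Partners that the name rule leaves out lay on both sides of 1. Ttc8, which is BBS8 in the same complex, had 424 against 350 reads, a ratio of 1.19 (1.03 to 1.38). Bbip1, its smallest subunit, had 1123 against 1138, and Arl6, the GTPase that recruits the BBSome to membranes, 463 against 431. Mkks, the third chaperonin-like factor (BBS6), had 434 against 318 reads, a ratio of 1.34 (1.16 to 1.56), on the other side of 1 from Bbs10 and Bbs12. Whether Mkks and these 2 genes differ in ratio was not tested.

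In the MKS module of the transition zone, 10 genes had a summed level of 249.7 against 254.2 CPM, a ratio of 0.982 (0.942 to 1.02), with 4 ratios above 1 and 6 below. Ahi1 (chr10:20952547-21080429, + strand), or Jouberin, had 1628 reads against 1731, the most of the 43 in the WT library. It was 1.08-fold lower (1.01 to 1.16), and its interval reached 1 under another scaling. The membrane proteins Tmem216 and Tmem231 had 382 against 332 and 341 against 303 reads, and Tmem67, or Meckelin, 220 against 229. Cc2d2a, a protein with coiled-coil and C2 domains, had 218 against 183 reads, a ratio of 1.17 (0.957 to 1.43).

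The remaining MKS genes also had intervals that spanned 1. The B9-domain proteins Mks1, B9d1 and B9d2 had 316 against 315, 379 against 374 and 432 against 436 reads. Of the tectonics, Tctn1 had 362 against 340 reads and Tctn3 182 against 217, a ratio of 0.824 (0.673 to 1.01). Tctn2, which the biotype kept out of the 43, had 323 reads against 376, 1.18-fold lower (1.02 to 1.38), nearer to Tctn3 than to Tctn1. The 3 B9-domain genes were the most even group of the module.

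In the NPHP module of the transition zone, Rpgrip1l (chr8:91217030-91313262, - strand), the scaffold on which the module is assembled, had 285 against 220 reads, a ratio of 1.27 (1.06 to 1.53). Cep290, which bridges microtubules and membrane, had 86 against 68 reads, a ratio of 1.24 (0.894 to 1.73), higher within counting error. Nphp4 (chr4:152476706-152563183, + strand), a direct partner of Rpgrip1l, had 248 reads against 318, 1.31-fold lower (1.10 to 1.55). These direct partners thus lay on opposite sides of 1. Intervals wholly above and wholly below 1 cannot overlap, so that adds nothing further, and the difference between the partners was not tested.

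Arl13b, the GTPase of the ciliary membrane, had 295 against 323 reads, a ratio of 0.897 (0.764 to 1.05). Inpp5e, the phosphatase that keeps the ciliary membrane poor in certain phosphoinositides and is targeted by Arl13b, had 622 against 617 reads. Neither interval excluded 1.

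Levels between genes were compared per length, as CPM per kb of annotated exons (GENCODE M21). The 43 genes spanned 0.334 to 30.1 in the WT library and 0.414 to 29.7 in the FOXM1f/+;Nestin-Cre library, with medians of 4.10 and 3.63. Ift20 was the highest per kb in both libraries, followed in the WT library by Ift43 at 17.8 and B9d2 at 17.1, and in the FOXM1f/+;Nestin-Cre library by Ift27 at 18.3 and Ift43 at 18.2. Cep290 was the lowest in both, followed by Rpgrip1l at 0.854 and 1.09 and by Bbs10 at 1.33 and 1.19 in the WT and FOXM1f/+;Nestin-Cre libraries. Subunits of 1 complex were not at 1 level: within the IFT-B core, Ift88 had 3.35 and Ift46 14.3 CPM per kb in the WT library. The length counts exons of every annotated isoform, which lowers the value of genes with long alternative exons.

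**Figure D3:**
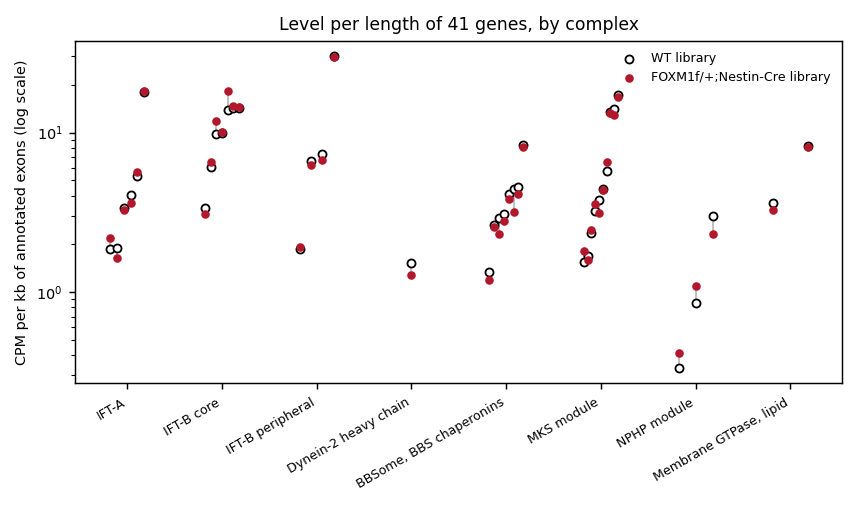
Level of 41 of the 43 genes as CPM per kb of annotated exons (log axis), by complex, in the WT (open) and FOXM1f/+;Nestin-Cre (filled) libraries. The spread within a complex, such as 1.85 to 30.1 among the peripheral IFT-B genes in WT CPM per kb, is wider than the gap between the libraries for any of them.

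Other genes of the ciliary machinery were close to the 43. Of 12 IFT and BBSome partners compared, none was called, 3 intervals lay above 1 and 1 below. For this list and those that follow, the shares over all genes compared were 16.5% above 1 and 19.2% below. Beside Mkks and Ttc8, Traf3ip1 (IFT54) had 454 against 382 reads, a ratio of 1.17 (1.02 to 1.34), and Cluap1 (IFT38) 246 against 301, a ratio of 0.803 (0.676 to 0.954). Their median log2 ratio was 0.06.

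The motors had 1 interval above 1 and 4 below among 14 genes, with a median log2 ratio of -0.05. All 4 below 1 were kinesin-2 genes, whose motors also move axonal cargo. Kif3b had 1036 reads against 1232, 1.21-fold lower (1.11 to 1.32), and Kif3c was 1.16-fold lower (1.10 to 1.23). Kif3a had 1571 against 1753 reads, and the adaptor Kifap3 was 1.12-fold lower (1.06 to 1.18). Dynll1, a light chain shared by many complexes besides dynein-2, had a ratio of 1.16 (1.12 to 1.20).

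Of 15 further transition zone and inversin genes, none was called, none had an interval above 1, and 2 had intervals below, Cspp1 at 1.11-fold lower (1.01 to 1.22) and the kinase Csnk1d at 1.06-fold lower (1.02 to 1.11). Among 16 basal body and distal appendage genes, the centriolar cap protein Ccp110, the appendage protein Cep89 and the kinase Nek2 had intervals above 1. Cep89 had 743 against 613 reads, a ratio of 1.19 (1.07 to 1.33). The appendage protein Fbf1 was 1.08-fold lower (1.03 to 1.13). The medians of these lists were -0.04 and 0.00.

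Receptors and carriers of the ciliary membrane had more ratios above 1. Of 19 genes, 16 had ratios above 1, 6 intervals lay above 1 and 2 below, and the median log2 ratio was 0.08. Sstr3, a somatostatin receptor of neuronal cilia, was the 1 gene called, with 210 against 135 reads, a ratio of 1.53 (1.22 to 1.91). Unc119b, a carrier of lipidated cargo, had 1710 against 1358 reads, a ratio of 1.24 (1.15 to 1.33). Pkd1 was 1.15-fold lower (1.07 to 1.24).

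Of 10 Hedgehog genes, which signal through the cilium and of which Smo and Ptch1 are also in the membrane list, 6 had intervals above 1 and none below, with a median log2 ratio of 0.15 and no call at 1.5-fold. The co-receptors Cdon and Gas1 had ratios of 1.28 (1.20 to 1.36) and 1.22 (1.13 to 1.32), and the effector Gli2 had 1.22 (1.09 to 1.37). Smo, which enters the cilium on activation, had 1410 against 1242 reads. The median of the 43 genes was -0.04, and the difference between the lists was not tested.

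The 43 genes also serve motile cilia. Of 17 axonemal and multiciliation genes compared, 8 were at least 1.5-fold lower and none higher, against 5.23% and 2.53% of all genes compared. Of these 8, 4 (Rsph4a, Dnah6, Rsph1 and Gmnc) were under 1 CPM in the FOXM1f/+;Nestin-Cre library and reached the minimum only through the WT library, so they had to differ. Among the 13 genes at 1 CPM or more in both libraries, 4 were lower. Rsph4a, a radial spoke head protein, had 3 against 34 reads, and the inner-arm dynein heavy chain Dnah6 had 5 against 38, both of that kind. Dnah9, an outer-arm heavy chain, had 38 reads against 88, 2.36-fold lower (1.59 to 3.54). Foxj1, the master regulator of motile ciliogenesis, had 295 reads against 415, 1.43-fold lower (1.23 to 1.67). The RFX genes, Rfx1 to Rfx5 and Rfx7, had intervals that spanned 1. Rfx3 had 964 against 991 reads.

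Markers of cells that carry primary or motile cilia differed between the libraries too, and their part in the values of the 43 genes was not tested. Of 11 choroid plexus epithelium markers compared, 10 were at least 1.5-fold lower, against 5.23% of all genes compared. Of these 10, 5 reached the minimum only through the WT library. Of the 6 at 1 CPM or more in both libraries, 5 were lower. The 13 in the table summed to 718 against 13744 reads. None of the defining markers Ttr (177 against 11255 reads), Clic6, Folr1 and Kcne2 was at 0. Of 11 apical radial glia markers, 8 had intervals above 1 and none below, with sums of 44906 and 36107 reads, a ratio of 1.22 (1.20 to 1.24). All 12 mitotic markers had intervals above 1, with a median log2 ratio of 0.35. Of 6 intermediate progenitor markers, 5 had intervals above 1 and 1 below, with a summed ratio of 1.16 (1.13 to 1.18).

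Of 10 postmitotic neuron markers, 8 had intervals below 1 and none above, with a summed ratio of 0.926 (0.919 to 0.934). Endothelial markers had 2 of 6 intervals below 1 and none above. Of 6 meningeal and pericyte markers, 4 intervals lay below 1 and none above. Erythroid genes had 5 of 7 intervals above 1 and none below, and 2 of the 7 reached 1 CPM in 1 library only. The summed ratio of the 43 cilium genes, 0.994, lay between those of the progenitor and the neuron markers, as any ratio near 1 would.

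**Figure D4:**
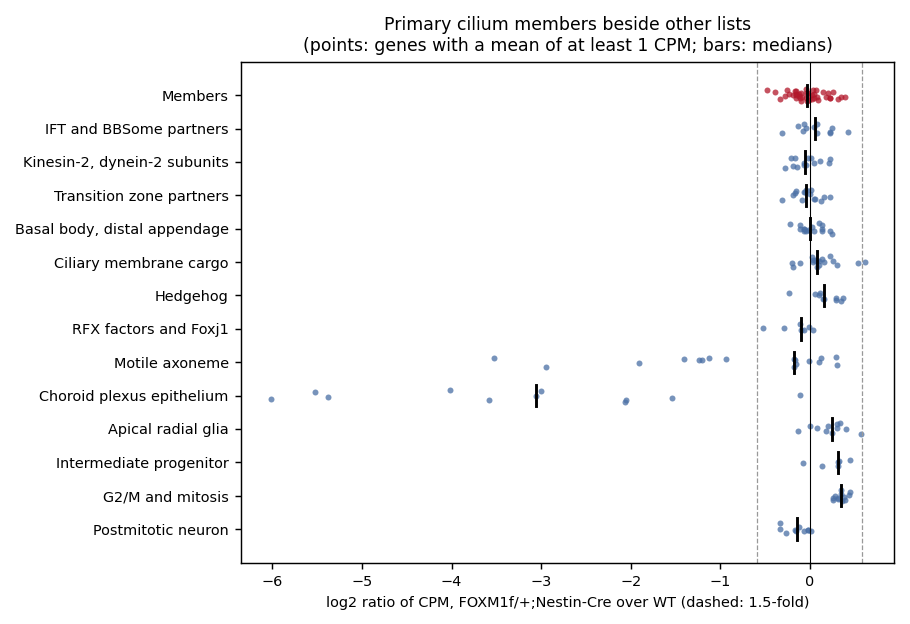
Log2 ratio of CPM for each gene with a mean of at least 1 CPM (points) and list medians (bars), for the 43 genes (top, red) and other ciliary and cell type lists (blue), with dashed lines at 1.5-fold. The 43 genes stay between -0.48 and 0.40, while motile axoneme genes reach -3.53 and choroid plexus markers -6.02.

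In the authors' deposited table, none of the 43 genes was marked significant, against 9.46% of all its genes. The adjusted p-value in the authors' deposited table was below 0.05 for 7 of the 43 (16.3%), against 22.9% of all genes, and the smallest was that of Ift27, 6.07e-07. These values set 1 column against 1 column, by a test that the sources used here do not name.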

How the data were processed

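Per the labels' protocols, total RNA was extracted with Trizol and 2 ug entered each library. Bowtie2 2.2.3, TopHat2 2.0.12 and HTSeq 0.6.0 and the build mm9 are named in the submitters' processing notes. The coordinates in the table equal those of GENCODE M21 (GRCm38) for 40 of the 43 genes and are given as GRCm38. The authors deposited raw read counts and CPM per genotype, with a count of 0 entered as 0.5 reads in the CPM. Per the file headers, the table also holds a fold change (a ratio of the CPM columns), its log2, and p-values. For strand and multi-mapping, the settings are not stated there.

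Exact conditional (Clopper-Pearson) intervals of 2 Poisson rates were computed for all genes averaging 1 CPM or more, scaled to the totals behind the CPM (17859653 and 17547268 reads), and genes were called from 1.5-fold. The reads carry no molecular identifiers in the sources used here and are not independent molecules. The 1 column per genotype allows no replicate check. All 43 genes enter the counts, medians and sums, and 2 of them are not reported singly here. From other lists up to 4 genes were named, by ratio over counting error among those whose interval excludes 1. Further genes named beside them (Arl6, Bbip1, Hspb11, Ttc26, Ttc30a1, Ttc30b, Tctn2, Rfx3, Rsph1, Gmnc, Kcne2, Folr1, Tubb3, Kif3a) were picked after their values were seen. The name rule uses no measured value, but the members and lists were chosen with earlier results of these data known.

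Motifs were searched on both strands. TMM or RLE factors served as other scalings, beside other expression minimums, other folds and a pseudocount of 1 CPM. The procedure was tested on simulated Poisson counts, which hold counting error only and no variation between animals or libraries. Python 3.11.15, NumPy 2.4.6, pandas 2.3.3, SciPy 1.17.1, Matplotlib 3.10.9, R 4.3.3 and edgeR 4.0.16 (scaling factors only) were used.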

Additional observations from a re-analysis of the deposited data

How the results depend on the processing

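No member was called with TMM or RLE scaling, with no expression minimum, with at least 1 CPM in both libraries, with a mean of at least 10 CPM or from 2-fold. When a CPM 25% above the other library's was enough, 5 members were called, 2 higher and 3 lower (11.6%, against 20.6% of all genes compared), and by an interval that excludes 1 there were 9. The median log2 ratio of the members lay between -0.04 and -0.01 under all alternatives run. TMM and RLE scaling moved all log2 ratios up by 0.02 and 0.03. The count of intervals below 1 went from 5 to 4 under both, Ahi1 leaving it, and the 4 above 1 were the same genes. Of 129 recomputed member ratios, none left its counting interval and 6 changed sign, those of B9d1, Inpp5e, Ift20 and Mks1. In 250 bases before the start only, GTTGCC was found in 21.6% of member promoters, against 12.7% of all. No paired analysis was possible because each genotype has 1 column, and for the same reason no replicate could be left out. With 65 to 1731 reads a member, counting error limits what could be seen to about the widths printed. The motif windows, the interval counts under each scaling and the set without overlapping genes were added after the data were seen.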

Other observations

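Several of these genes share a start region with another gene on the opposite strand. For 9 of the 43 (20.9%), a protein-coding gene started within 1 kb head to head in GENCODE M21, against 9.86% of 13057 protein-coding genes compared. Ift80 starts 168 bp from Smc4, a condensin subunit of dividing cells. Smc4 had 2138 reads in the FOXM1f/+;Nestin-Cre library and 1534 in the WT library, with a log2 ratio of 0.45 (0.36 to 0.55), beside 0.04 for Ift80. In GENCODE M21, Dync2h1 starts 74 bp from Dcun1d5, a neddylation factor. Dcun1d5 had 1141 and 1517 reads, with a log2 ratio of -0.44 (-0.55 to -0.32), beside -0.26 for Dync2h1. The RefSeq start of Dync2h1 lies 7388 bp inside its gene model, so by that start the pair falls outside 1 kb. Ift20 starts 29 bp from Tnfaip1, with log2 ratios of -0.02 and -0.04. Pairs thus include both like and unlike ratios, and no pattern over the 9 was tested. These pairs were chosen after their values were seen.

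Exons of 10 of the 43 genes overlap those of another annotated gene. The overlap covered 25.5% of the exon length of Tctn1 (with Hvcn1, opposite strand) and 20.3% of that of Inpp5e (with Pmpca, opposite strand). Counts of such genes are uncertain where strand was not used. Without the 10 genes the median log2 ratio was -0.02.

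By the gene ontology terms in the table, 23 genes of intraciliary transport had no call at 1.5-fold and a median log2 ratio of -0.02, and 26 genes of the ciliary transition zone no call and 0.06. Of 63 axoneme genes, 11 were at least 1.5-fold lower and none higher, against 5.23% and 2.53% of all genes compared. Of the 11, 3 reached the minimum of 1 CPM only through the WT library. Of 20 cilium movement genes, 5 were lower and none higher, 2 of them of that kind. The terms were looked up after the ratios were known.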
